A study of Mus musculus with 32 samples.

Results

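Tbx21 and Eomes encode the T-box transcription factors T-bet and Eomesodermin, and both genes were found by symbol in the expression tables of the embryonic mouse thymus analysed here. They are 2 of 19404 genes in the E15.5 table (E for embryonic day) and 2 of 26244 genes in the E19.5 table. In both stages their reads fell almost wholly into 1 sorted population, the BCL11b-ID2+ fraction of the earliest thymocyte stage. Within that population Tbx21 was present in every library of both stages, whereas Eomes was high in 1 of 3 libraries at E15.5 and in 3 of 3 at E19.5.

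T-bet and Eomesodermin bind related DNA sequences and together direct the programme of group 1 innate lymphocytes. Conventional natural killer (NK) cells are known for expressing both factors, whereas type 1 innate lymphoid cells (ILC1) keep T-bet with little or no Eomesodermin. Interleukin-15 signalling, NFIL3, ETS1 and TOX are known to act upstream of them, and interferon gamma is the classical target of T-bet. ID2 blocks the E proteins that drive T-cell development and is needed for innate lymphoid lineages, and BCL11b marks commitment to the T lineage and is also used by type 2 innate lymphoid cells.

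The 32 RNA-seq libraries came from flow-sorted embryonic thymus of the strain labelled 5x polychromILC mice, which every group shares. Its alleles are not spelled out in the sources used here. Double-negative 1 (DN1) cells, the earliest CD4-CD8- thymocytes, were divided at both stages into BCL11b-ID2-, BCL11b-ID2+, BCL11b+ID2- and BCL11b+ID2+ gates with 3 libraries each. A BCL11blowID2low gate (3 libraries) exists at E19.5 alone, and the later DN2 stage has 2 E15.5 and 3 E19.5 libraries, which makes 14 and 18 in all. The labels do not tie the libraries of a gate to different animals, and p-values therefore cover library-to-library spread, possibly technical.

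E15.5 libraries held 12030749 to 20709387 reads, 3393061 to 7808245 of them not mitochondrial. E19.5 libraries held 2599470 to 9498133 reads, 1762514 to 5161153 of them not mitochondrial. All levels given here are normalised read counts, in which 1 read was worth 0.560 to 1.64 in E15.5 libraries and 0.590 to 1.78 in E19.5 libraries. Each stage has a table with its own scaling, and no value of one stage is tested against the other. The sorted genes themselves followed the labels at E19.5, where Id2 lay between 1278 and 1540 and Bcl11b between 18.9 and 39.2 in the BCL11b-ID2+ gate. At E15.5 the library labelled BCL11b-ID2+ number 1 stood apart from its group, with Bcl11b at 509 against 7.03 and 56.1 in the other libraries of the gate. In addition, the BCL11b+ID2+ library 1 of E15.5 had Id2 at 85.0, below the 126 of the BCL11b-ID2- library 1. For the E15.5 results that use the first of these, the folds, differences, list counts and list medians are also given without it. In the E19.5 BCL11b-ID2+ libraries the summed level of 8 T-cell markers lay between 2804 and 3243, overlapping the 3085 to 3401 of BCL11b-ID2-. That of the macrophage and granulocyte markers lay between 45.3 and 92.7, against 2106 to 3272 in BCL11b-ID2-. Among them Elane and S100a9 were at 0 in BCL11b-ID2+, whereas Cd68 overlapped, at 13.1 to 88.6 against 24.4 to 58.6. The summed level of the dendritic-cell markers also overlapped, at 317 to 451 in BCL11b-ID2+ against 257 to 385. The part of these cells in the results was not tested.

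Tbx21 (ENSMUSG00000001444) lies on the minus strand of chromosome 11 at 97098071 to 97115331 in GRCm38, with 1 annotated transcript of 2488 exonic bases. Eomes (ENSMUSG00000032446) lies on the plus strand of chromosome 9 at 118478212 to 118486132, with 3 transcripts that cover 4155 exonic bases. The 3′ end of Eomes is overlapped by the antisense gene Gm33460 over 574 exonic bases, and because the strand of the counted reads is not given, reads of the pair cannot be told apart there. No annotated gene overlaps Tbx21. The promoter windows, from 250 bases before to 50 bases after the RefSeq start, are shown because both genes were read in the same gate and because ID2 acts on E proteins, whose binding site is the E-box. They are written 5′ to 3′ on the strand of the gene, with E-boxes (CANNTG) in capitals, from RefSeq on GRCm38.p6 at chr11:97115282-97115581 (minus strand) and chr9:118477939-118478238 (plus strand).
Tbx21: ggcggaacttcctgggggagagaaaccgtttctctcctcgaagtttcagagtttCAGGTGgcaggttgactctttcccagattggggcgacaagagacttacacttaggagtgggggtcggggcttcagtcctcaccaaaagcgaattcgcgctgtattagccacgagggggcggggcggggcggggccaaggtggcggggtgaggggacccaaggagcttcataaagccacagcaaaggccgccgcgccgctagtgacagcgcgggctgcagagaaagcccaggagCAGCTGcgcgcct
Eomes: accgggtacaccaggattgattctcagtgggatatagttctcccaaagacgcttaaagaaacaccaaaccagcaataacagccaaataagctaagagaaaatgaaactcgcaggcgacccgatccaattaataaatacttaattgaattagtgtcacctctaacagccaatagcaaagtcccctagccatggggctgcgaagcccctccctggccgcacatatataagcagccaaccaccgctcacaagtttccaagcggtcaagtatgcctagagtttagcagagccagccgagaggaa

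The Tbx21 window held 2 E-boxes, CAGGTG and CAGCTG, at bases 55 to 60 and 288 to 293 of the window, and the Eomes window held 0. An E-box was present in 72.3% of the 32851 promoter windows of the table, so these letters are common. The Ets core GGAA, read on both strands, occurred 3 times in the Tbx21 window and 2 times in the Eomes window, and in 96.0% of all windows. Neither window held the T-box core GGTGTG (19.0% of all windows), the Runx site TGTGGT (16.8%), the STAT site TTCNNNGAA (8.30%), the NFIL3 site TTANGTAA (2.32%) or the TATA-box letters TATAAA (13.6%), with both strands searched. Only the letters printed here were searched. The Eomes window holds TATATAAG, a close spelling of the TATA box that was not counted. The windows also differed in composition, with 62% G and C and 21 CpG in Tbx21 against 47.3% and 10 in Eomes, where the median of all windows was 52.7% and 7. These matches describe letters and were not tested as sites.

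At E15.5 Tbx21 was read in every BCL11b-ID2+ library, at 21.6 in library 1, 101 in library 2 and 87.6 in library 3 (70.0 ± 42.5, SD, n = 3). All 11 libraries of the other gates lay at or below 2.80, and 8 of them held 0 reads, so the gate did not overlap with any other. In these bulk libraries fewer cells of a type and less RNA per cell cannot be told apart. The gate held 252 of the Tbx21 reads of the stage and the other gates held 8, so 96.9% of the reads came from it. With all 3 libraries the mean was 318-fold that of the BCL11b-ID2- gate, with a counting interval of 56.6 to 12617 because the latter rests on 1 read. It was 75.1-fold that of the BCL11b+ID2+ gate, whose 5 reads all stood in library 2, and at least 48.9-fold that of DN2, which had 0 reads, against a floor of 3 reads over the group. Without library 1 these folds were 428, 101 and at least 65.8. Intervals and floors cover counting error alone.

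Eomes at E15.5 did not follow Tbx21 library by library. It stood at 584 normalised counts in library 1 of the BCL11b-ID2+ gate, at 1.17 in library 2 and at 5.04 in library 3 (197 ± 335, SD, n = 3). The last 2 values rest on 9 reads in all, and the value of library 2, 1 read, lay within the range of the other gates, which reached 1.35. The library with the highest Eomes was thus the one with the lowest Tbx21. Without library 1 the mean of the gate fell from 197 to 3.11 for Eomes, while that of Tbx21 went from 70.0 to 94.2. The 11 libraries of other gates held 8 Eomes reads together, with 6 libraries at 0.

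The E15.5 library 1 differed from the other libraries of its gate in further NK and ILC1 genes, so its Eomes value does not stand alone. Klrb1c, the NK1.1 receptor, was at 71.1 there against 1946 and 958, and Nfil3, a factor upstream of both T-box genes, at 0 against 372 and 127. Ccl3 and Ccl4, chemokine targets of T-bet, were both at 0, against 90.3 and 185 for Ccl3 and 137 and 27.7 for Ccl4. In the other direction Itga2, the CD49b integrin of NK cells, was at 2607 against 593 and 508, and Xcl1, a chemokine of NK cells, at 1644 against 236 and 131. Ifng was at 618 in library 1, 17.6 in library 2 and 368 in library 3, and Cd3e, a T-cell receptor component, at 1018, 173 and 4.41. The summed level of the 8 T-cell markers of the gate ranged from 1923 to 4742. The part of the Bcl11b and Cd3e levels in the Eomes value was not tested.

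The linear model of all tested genes did not call Tbx21 at E15.5. The log2 difference between BCL11b-ID2+ and BCL11b-ID2- was 5.64 ± 1.58 (SE), with an adjusted p of 0.126 in limma, and it was higher in 3 of 3 libraries. Few genes of any kind passed in that comparison, 0.321% of the 10289 tested being higher and 0.146% lower. Between BCL11b+ID2+ and BCL11b-ID2+ the Tbx21 difference was -5.24 ± 1.58 (adjusted p = 0.224), where 0.0389% of genes were higher and 0.0389% lower, and between DN2 and BCL11b-ID2+ it was -5.88 ± 1.76 (adjusted p = 0.132), where 0.573% were called. The interaction, the change in the ID2 effect with BCL11b, was -5.43 ± 2.23 for Tbx21 (adjusted p = 0.721), and limma called 0% of genes in it, with 662 at an unadjusted p below 0.05, and edgeR called 0. Tbx21 passed the filter on low values through the 3 BCL11b-ID2+ libraries alone. The direction of its differences from this gate and of its interaction was thus set by that filter. Eomes exceeded the minimum value of 10 in 1 library alone and was therefore not tested at this stage. Its log2 differences were 3.49 and -3.61 in the first pair of comparisons with library 1 and 1.04 and -1.16 without it. Without library 1 the Tbx21 difference from BCL11b-ID2- was 6.33 (adjusted p = 0.137), that of BCL11b+ID2+ from the gate -5.93 (0.285), that of DN2 -6.57 (0.143) and the interaction -6.12 (0.744). Among the gates at or near 0, Tbx21 differed by 0.21 ± 1.58 with ID2 in BCL11b-positive cells (adjusted p = 0.992, 0.719% of genes called) and by 0.19 ± 1.58 with BCL11b in ID2-negative cells (adjusted p = 0.996, 0.00972% called).

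**Figure D1:**
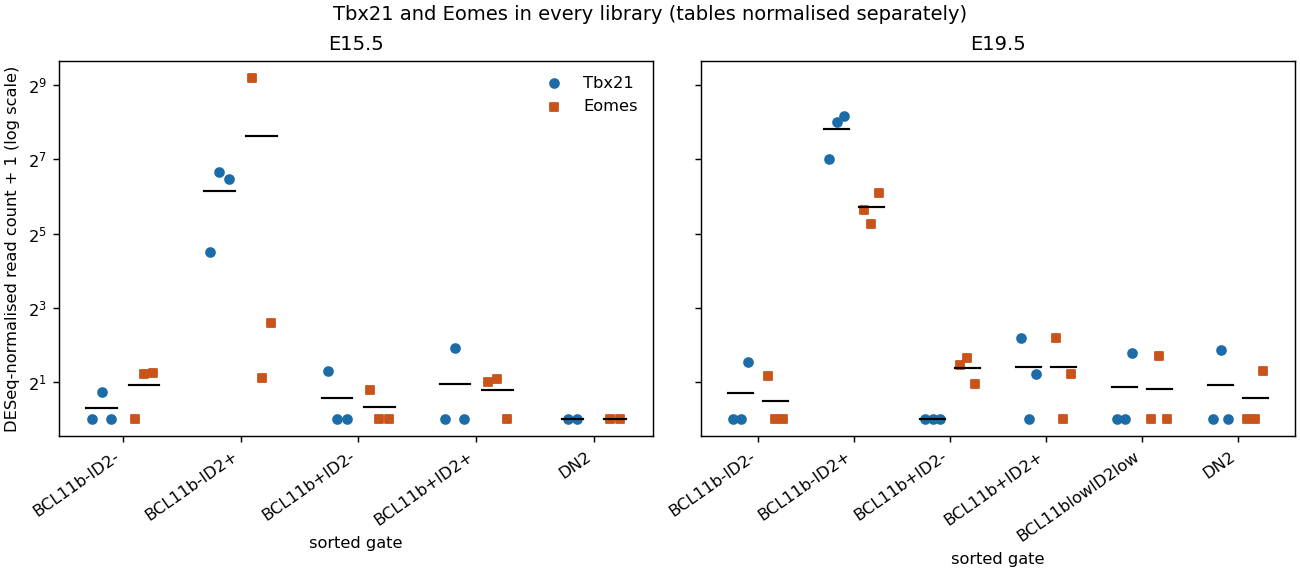
Normalised read counts plus 1 of Tbx21 (circles) and Eomes (squares), on a log2 axis, for every library of each sorted gate at E15.5 (left) and E19.5 (right). Each symbol is 1 library and each black line the mean of a gate; the BCL11b-ID2+ gate stands above all others for Tbx21 at both stages, whereas the Eomes libraries of that gate spread from 1.17 to 584 at E15.5 and lie between 37.6 and 67.3 at E19.5.

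At E19.5 both genes were read in every BCL11b-ID2+ library and were near 0 in all 5 other gates. Tbx21 stood at 129, 257 and 287 in libraries 1, 2 and 4 (224 ± 84.1, SD, n = 3). In the other 15 libraries it reached at most 3.56, and 10 of them held 0 reads. The gate held 1036 reads of Tbx21 and the others 13 together, so 98.8% of the reads came from it.

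Tbx21 was 350-fold higher in BCL11b-ID2+ than in BCL11b-ID2- cells, with a counting interval of 96.7 to 2897 from 2 reads in the latter. It was 138-fold higher than in BCL11b+ID2+, 253-fold higher than in DN2 and 278-fold higher than in BCL11blowID2low cells. Against BCL11b+ID2-, which had 0 reads in 3 libraries, it was at least 180-fold higher. The means of the other gates with reads ran from 0.640 in BCL11b-ID2- to 1.63 in BCL11b+ID2+, and their libraries overlapped.

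Eomes at E19.5 stood at 48.5, 37.6 and 67.3 in the BCL11b-ID2+ libraries 1, 2 and 4 (51.1 ± 15.02, SD, n = 3). The highest of the other 15 libraries was at 3.56 and 7 held 0 reads, so again the gate did not overlap with any other. It was 126-fold higher than in BCL11b-ID2- cells (22.4 to 4989 from 1 read), 31.4-fold higher than in BCL11b+ID2+, 32.0-fold higher than in BCL11b+ID2-, 68.6-fold higher than in BCL11blowID2low and 106-fold higher than in DN2. All 3 BCL11b+ID2- libraries held 1 or 2 Eomes reads, with values from 0.922 to 2.14, while their Tbx21 was at 0. The antisense overlap at the 3′ end of Eomes applies to these low values too.

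In limma at E19.5 Tbx21 was higher in BCL11b-ID2+ than in BCL11b-ID2- by 7.22 ± 0.94 on the log2 scale (adjusted p = 6.51e-06), and Eomes by 5.28 ± 0.91 (adjusted p = 0.0002). In that comparison 8.82% of the 13840 tested genes were higher and 7.03% lower. Both passed the filter on low values through the 3 libraries of this gate alone, so they had to differ there, and their passing is no separate support. The step from BCL11b-ID2+ to BCL11b+ID2+ went with a difference of -6.60 ± 0.94 for Tbx21 (adjusted p = 4.99e-05) and of -4.53 ± 0.91 for Eomes (adjusted p = 0.00203), beside 2.88% of genes lower and 3.16% higher. In edgeR on the recovered reads the Eomes difference gave an adjusted p of 0.0528 and was not called, and the adjusted p lay between 1.57e-05 and 0.0528 over the alternatives. DN2 minus BCL11b-ID2+ was -7.11 on the log2 scale for Tbx21 (adjusted p = 5.48e-06) and -5.23 for Eomes (adjusted p = 0.000154), beside 12.5% of genes lower. BCL11blowID2low minus BCL11b-ID2+ was -7.14 for Tbx21 (adjusted p = 1.54e-05) and -5.10 for Eomes (adjusted p = 0.000499), beside 5.35% of genes lower.

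The interaction of ID2 and BCL11b was called for both genes at E19.5 in limma and for neither in edgeR, and its negative sign was set by the same filter. Among BCL11b-positive cells the ID2-positive gate differed from the ID2-negative gate by 1.13 ± 0.94 for Tbx21 (adjusted p = 0.560) and by -0.21 ± 0.91 for Eomes (adjusted p = 0.940), where 8.73% of genes were called. The interaction was -6.08 ± 1.32 for Tbx21 (adjusted p = 0.00444) and -5.50 ± 1.28 for Eomes (adjusted p = 0.00749) in limma, where 4.7% of genes had a negative interaction. In edgeR the adjusted p was 0.977 for Tbx21, whose BCL11b+ID2- libraries all held 0 reads, and 0.0608 for Eomes. Among ID2-negative cells BCL11b made a difference of -0.52 ± 0.94 for Tbx21 (adjusted p = 0.780) and 0.97 ± 0.91 for Eomes (adjusted p = 0.542), where 14.9% of genes were called. BCL11blowID2low cells were not called apart from BCL11b+ID2+ or BCL11b-ID2- cells for either gene, with log2 differences from -0.57 to 0.18 and SEs of 0.91 to 0.94. In these comparisons 4.43% and 14% of genes were called.

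To set the factors beside each other, values were divided by exon length and compared within each BCL11b-ID2+ library, which removes the library's scaling. At E19.5 Tbx21 had 51.7, 103 and 115 normalised counts per kb of exon in libraries 1, 2 and 4, and Eomes 11.7, 9.05 and 16.2. Tbx21 exceeded Eomes 4.43-fold, 11.4-fold and 7.12-fold per kb, so the order was the same in 3 of 3 libraries. The mean log2 difference, Eomes minus Tbx21, was -2.81 ± 0.68 (SD, n = 3). At E15.5 the order differed between libraries. In library 1 Eomes exceeded Tbx21 16.2-fold per kb, at 140 against 8.67. In library 2 Tbx21 exceeded Eomes 144-fold, with a counting interval of 25.1 to 5738 from 1 Eomes read, and in library 3 29.0-fold from 8 Eomes reads. The mean log2 difference was -2.32 ± 5.50 (SD, n = 3) and -5.45 without library 1. These log2 differences use values plus 1. Of the other gates, BCL11b+ID2+ alone held 3 or more reads of both genes, with 5 reads of Tbx21 and 3 of Eomes at E15.5 and 4 of each at E19.5. Its mean Eomes minus Tbx21 was -0.69 in the E15.5 and -0.74 in the E19.5 libraries, the latter being the value that equal counts give after division by length. BCL11b-ID2+ differed from it by -1.63 at E15.5 (exact two-sided permutation test over libraries, p = 0.6, adjusted p = 0.6 over the 2 tests) and by -2.07 at E19.5 (exact p = 0.1, adjusted p = 0.2). The smallest p that 3 against 3 libraries allow is 0.1. Without library 1 the E15.5 difference was -4.77, and without library 2 it was 0.36.

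**Figure D2:**
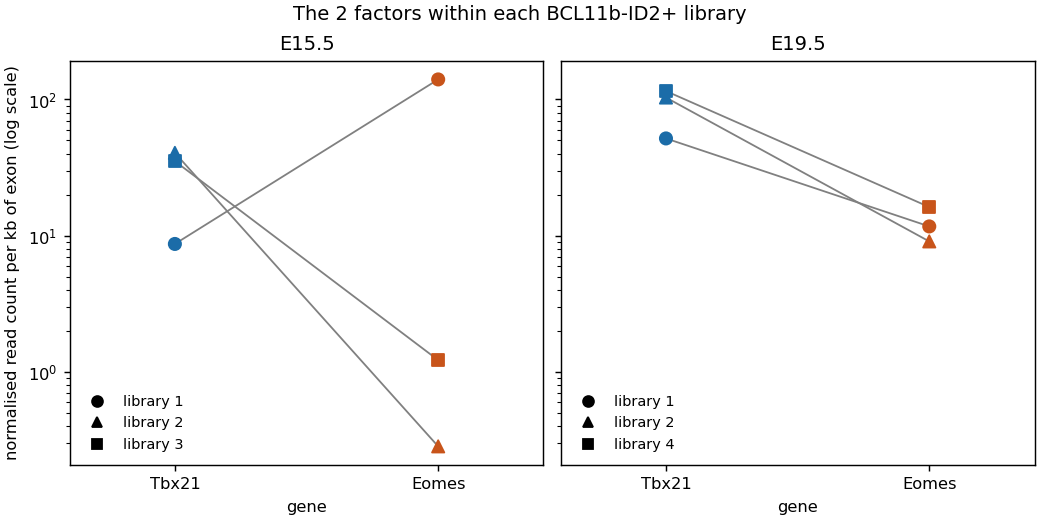
Normalised read counts per kb of exon (log axis) of Tbx21 and Eomes within each BCL11b-ID2+ library at E15.5 (left) and E19.5 (right), with 1 line and symbol shape per library. The 3 lines of E19.5 fall from Tbx21 to Eomes, whereas at E15.5 library 1 rises from 8.67 to 140 and libraries 2 and 3 fall.

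Of the 17 family genes listed, 3 were in the E15.5 table and 9 in that of E19.5. Mga, a large T-box protein that also dimerises with MAX, was the only other family gene above 10 in 3 or more libraries, with E15.5 values of 180 to 7187 and E19.5 values of 375 to 1354. It was not called between the BCL11b-negative gates at either stage, its E19.5 values being 681, 567 and 375 in BCL11b-ID2+ and 603, 557 and 770 in BCL11b-ID2-. Tbx6 and Tbx19 exceeded 10 in 2 of 18 libraries each and Tbx3 and Tbx15 in 1 each, with the highest at 61.8 for Tbx6.

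Of the 19 regulators listed as upstream of the 2 factors, 18 were tested at E19.5, and 10 were higher and 2 lower in BCL11b-ID2+ than in BCL11b-ID2- cells. Their median log2 difference was 1.55, beside -0.01 over all genes tested, of which 8.82% were higher and 7.03% lower. Id2, a gene of the sort itself, led the list and is a check of the gate rather than a result. The rise was not particular to this gate. Against BCL11b-ID2-, BCL11b+ID2- had 11 of 18 regulators higher and 0 lower (median 1.94), and BCL11blowID2low 9 and 0 (median 1.33). Nfil3, a leucine zipper factor needed for NK cells, was at 160, 94.4 and 92.1 in BCL11b-ID2+ and at 6.10, 0 and 24.01 in BCL11b-ID2-, higher by 4.33 ± 0.94 (adjusted p = 0.0021). Ets1, an Ets factor of lymphocytes, was at 2178 ± 233 against 172 ± 44.9, higher by 3.69 ± 0.24 (adjusted p = 1.77e-10). Ikzf3, the Ikaros family factor Aiolos, was higher by 4.53, Zbtb16, the PLZF factor of innate lymphoid precursors, by 2.45, and Foxo1 by 2.21. Stat5a and Stat5b, signal transducers of interleukin-15, were lower, with differences of -1.53 and -1.28 (adjusted p = 0.0111 and 0.00843). The Stat5a call was lost without BCL11b-ID2+ library 2 (adjusted p = 0.0698) or BCL11b-ID2- library 1 (0.056), and the Stat5b call without BCL11b-ID2- library 2 (0.0729).

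Between BCL11b+ID2+ and BCL11b-ID2+ at E19.5, 2 of 18 regulators were higher, 1 was lower, and the median was 0.45, beside 3.16% of all genes higher, 2.88% lower and a median of -0.04. Gata3, the type 2 factor, was higher in the BCL11b-positive gate by 1.75 ± 0.24 (adjusted p = 2.87e-05), and Ikzf3 by 1.70 ± 0.34 (adjusted p = 0.00203). Tcf7, a T-lineage and innate lymphoid factor, differed by -0.87 (adjusted p = 0.015), with 603 to 936 against 1220 to 1738. That call was lost without BCL11b-ID2+ library 1 (adjusted p = 0.0952) or 2 (0.052) and without BCL11b+ID2+ library 4 (0.122). Nfil3, at 83.7, 139 and 64.6 in BCL11b+ID2+, and Ets1, at 2923, 2776 and 2619, were not called between these gates. The Nfil3 libraries of the gates overlapped, whereas every BCL11b+ID2+ library had more Ets1 than any BCL11b-ID2+ library.

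Most cytokine receptors listed as upstream of T-bet or Eomesodermin were also higher in the gate than in BCL11b-ID2-, though not in this gate alone. The list holds Tgfbr1 and Tgfbr2 and is not limited to receptors for inducing cytokines. Of 11 tested at E19.5, 7 were higher and 1 lower (median 2.08), beside 8.82% and 7.03% of all genes (median -0.01). BCL11b+ID2- had 6 higher and 2 lower than BCL11b-ID2- (median 1.08), and BCL11blowID2low 6 and 2 (median 1.26). Il2rb, the shared beta chain of the interleukin-2 and interleukin-15 receptors, was at 10214, 9933 and 10494 in BCL11b-ID2+. Its values were 86.6, 37.6 and 157 without ID2 and BCL11b, and 1175, 766 and 439 with both. Of the 11 receptors it had the largest difference from BCL11b-ID2- (6.98 ± 0.37, adjusted p = 1.35e-11), and BCL11b+ID2+ minus BCL11b-ID2+ was -3.80 (adjusted p = 3.71e-07). Il18r1, the interleukin-18 receptor, was higher than in BCL11b-ID2- by 4.91, Il27ra by 3.61 and Ifngr1 by 2.22. In other gates Il27ra reached 367 and Ifngr1 3658, above their highest BCL11b-ID2+ values of 141 and 1293. Il18r1 reached 1020 in other gates, below its lowest BCL11b-ID2+ value of 1471. Ifngr2, the second chain of the interferon gamma receptor, was lower in the gate, at 7.88 ± 9.30 (SD, n = 3) in BCL11b-ID2+ against 53.9 ± 28.8 without ID2 and 163 ± 69.1 with BCL11b. Il12rb2, an interleukin-12 receptor chain and itself a T-bet target, differed by -3.52 on the log2 scale from BCL11b-ID2+ to BCL11b+ID2+ (adjusted p = 0.00639). Of the 11, 1 was higher and 3 were lower in that comparison, with a median of -0.09, beside 3.16% and 2.88% of all genes (median -0.04).

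Of the 10 T-bet targets tested at E19.5, 5 were higher and 1 was lower in BCL11b-ID2+ than in BCL11b-ID2- (median 2.80). Over all genes 8.82% were higher and 7.03% lower (median -0.01). BCL11b+ID2+ also had 5 of the 10 higher and 0 lower than BCL11b+ID2- (median 2.33), with Tbx21 at or near 0 in both. There 8.73% of all genes were called (median 0.005). Against BCL11b-ID2-, BCL11b+ID2- had 0 higher and 7 lower (median -3.12), beside 14.9% of genes called. BCL11blowID2low had 0 higher and 3 lower (median -1.74), beside 14%. From BCL11b-ID2+ to BCL11b+ID2+, 0 were higher and 7 lower (median -3.85), beside 3.16% and 2.88% of all genes (median -0.04). The list shares members with the others, among them Gzmb, Cxcr3, Zeb2 and Il12rb2. Ifng stood at 120, 199 and 188 in BCL11b-ID2+. It was at 1.22, 0 and 3.84 in BCL11b-ID2-, and 0, 0 and 2.64 were the BCL11b+ID2+ values. It was higher than in BCL11b-ID2- by 6.23 ± 0.88 (adjusted p = 1.87e-05). In all other gates Ifng was at most 3.84, so it passed the filter on low values through BCL11b-ID2+ alone. Ifng thus had to differ there, and its calls are no separate support. Ccl5, a chemokine of cytotoxic lymphocytes, was at 1429, 1357 and 1802 against 9.76, 16.6 and 3.84 (7.29 ± 0.78, adjusted p = 4.55e-07). Gzmb, a granzyme, was higher by 4.56 and Cxcr3, a chemokine receptor, by 4.09. Zeb2, which acts with T-bet in late NK maturation, was lower, at 77.2, 73.7 and 29.5 against 495, 737 and 782 (adjusted p = 0.00376). Ccl3 and Ccl4 were lower in BCL11b+ID2+ than in BCL11b-ID2+, with differences of -4.12 and -5.02 (adjusted p = 0.0106 and 0.00237). Ccl4 was at 0 in all BCL11b+ID2+ libraries, so its fitted value is no bound. Outside BCL11b-ID2+ it reached 10 in 1 library, at 20.2. Ccl4 thus passed the filter on low values through BCL11b-ID2+, and its call is no separate support. The Ccl3 call was lost without BCL11b+ID2+ library 2 (adjusted p = 0.0729) or 4 (0.074) and without BCL11b-ID2+ library 4 (0.0618). The 7 targets lower in BCL11b+ID2+ than in BCL11b-ID2+ also hold Cxcr3, whose call was lost without BCL11b+ID2+ library 2 (adjusted p = 0.0534).

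**Figure D3:**
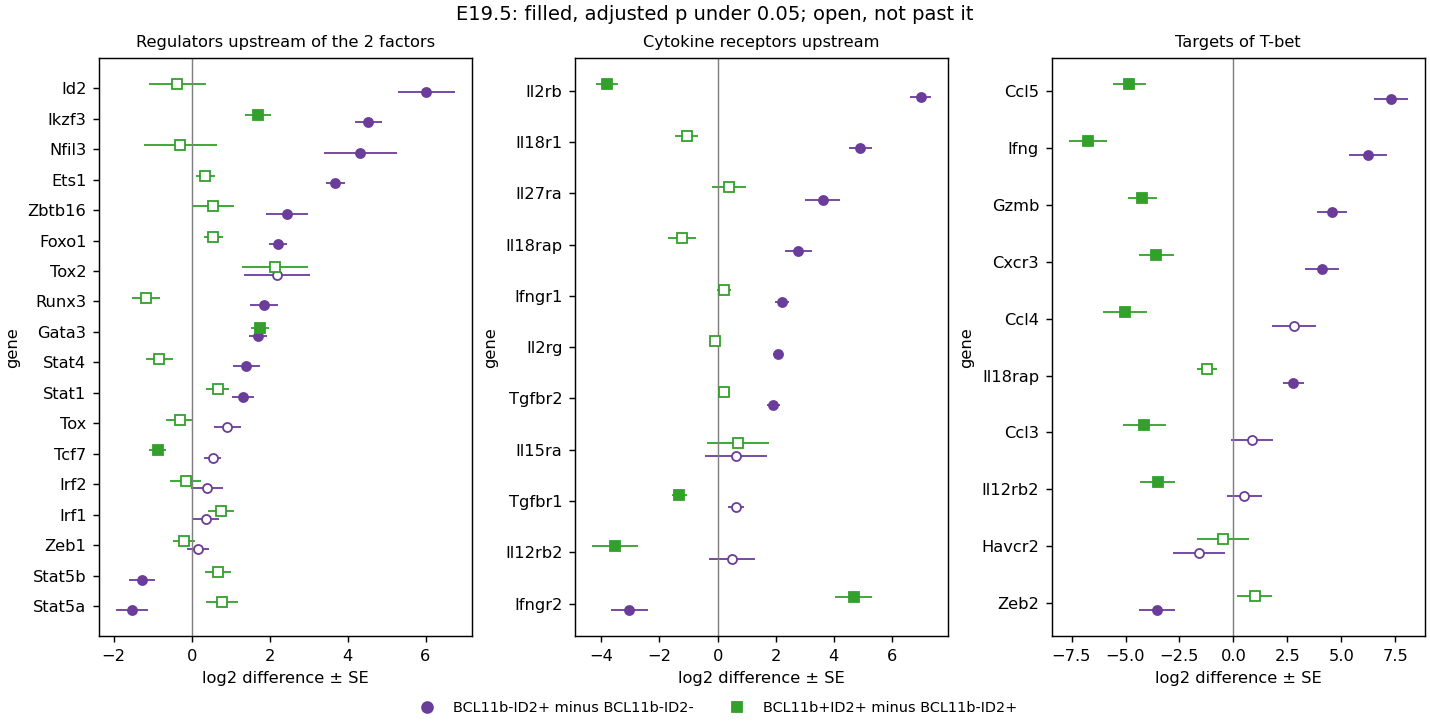
Log2 differences at E19.5 (points, with SE bars) of the listed regulators, cytokine receptors and T-bet targets between BCL11b-ID2+ and BCL11b-ID2- (circles) and between BCL11b+ID2+ and BCL11b-ID2+ (squares), filled where the adjusted p was below 0.05. Ifng and Ccl5 lie on opposite sides of 0 in the 2 comparisons, and the Nfil3 and Ets1 squares are open. The comparisons share the BCL11b-ID2+ libraries.

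Genes that NK cells and ILC1 have in common marked the same gate at E19.5, where 12 of 14 were higher than in BCL11b-ID2- (median 5.85) and 12 of 14 lower in BCL11b+ID2+ than in BCL11b-ID2+ (median -5.03). Over all genes 8.82% were higher in the first comparison (median -0.01) and 2.88% lower in the second (median -0.04). Ncr1, the NKp46 receptor, was at 450, 597 and 698 in BCL11b-ID2+ and at no more than 5.94 in all other gates. Klre1 was at most 2.24 in the other gates. Both passed the filter on low values through BCL11b-ID2+ alone, so they had to differ, and their calls are no separate support. Klrb1c was at 1097 ± 45.3 against 6.36 ± 2.16 in BCL11b-ID2- (7.26 ± 0.97, adjusted p = 8.81e-06), and Klrk1, the NKG2D receptor, at 1469 ± 223 against 3.86 ± 3.35. In the other gates Klrb1c had 86 reads, 59 of them in 1 library. It too needed the BCL11b-ID2+ libraries to pass the filter, so its call is no separate support. Xcl1 was higher by 6.94 and Prf1, the pore protein perforin, by 6.18. From BCL11b-ID2+ to BCL11b+ID2+ the NK receptors Klrd1, Cd244a and Klre1 differed by -8.58, -8.05 and -6.36, and Klre1 had 0 reads in the latter, so its fitted value is no bound. Fasl was not called in either comparison, at 123, 59.1 and 113 in BCL11b-ID2+ and 196, 67.3 and 130 in BCL11b-ID2-. The summed level of the 5 NK-cell markers lay between 5999 and 8404 in BCL11b-ID2+ and between 85.0 and 659 in the libraries of the other gates.

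The list that separates ILC1 from NK cells was also raised in this gate. Of 13 ILC1 genes tested at E19.5, 9 were higher and 1 lower than in BCL11b-ID2- (median 3.36), beside 8.82% and 7.03% of all genes (median -0.01). Gzmc, a granzyme of ILC1-like cells, stood at 5644, 5034 and 7045 against 10.98, 7.96 and 28.8 (8.63 ± 0.74, adjusted p = 1.47e-08). Itga1, the CD49a integrin, was at 1242, 1536 and 1379 against 9.76, 7.96 and 26.9, and Zfp683, the tissue residency factor HOBIT, at 246, 335 and 522 against 0, 7.23 and 0.960. Itgae, the CD103 integrin, was higher by 6.27 and Cxcr6 by 6.86. Against BCL11b+ID2+ cells 5 genes were lower in the BCL11b-positive gate, among them Gzmc with a difference of -8.36, Itga1 with -6.38, Zfp683 with -4.78 and Tnfsf10, the TRAIL ligand, with -3.62. The Zfp683 call was lost without BCL11b+ID2+ library 1 (adjusted p = 0.0521) or BCL11b-ID2+ library 4 (0.0594). Il21r, the gene lower than in BCL11b-ID2- (adjusted p = 0.0109), lost its call without library 2 of either gate (0.0887 for BCL11b-ID2+ and 0.0564 for BCL11b-ID2-). Cxcr6 and Il7r were higher in BCL11b+ID2+ than in BCL11b-ID2+, with Cxcr6 at 1930 ± 520 against 522 ± 137 (adjusted p = 0.00466). The median of the list between the ID2-positive gates was -0.04, the same as over all genes, of which 2.88% were lower and 3.16% higher.

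Conventional NK genes were split. Of the 8 tested at E19.5, Itga2, Cx3cr1, Klrg1 and Prdm1 were higher in BCL11b-ID2+ than in BCL11b-ID2- and 2 were lower, among them Zeb2 (median 1.03). Over all genes 8.82% were higher and 7.03% lower (median -0.01). Cx3cr1, a chemokine receptor, was at 919 ± 73.0 against 13.4 ± 9.69 (6.23 ± 1.06, adjusted p = 0.000179), and it was the only gene of the list called between the ID2-positive gates, being at 22.8 ± 13.5 in BCL11b+ID2+ (adjusted p = 0.0014), where the list median was 0.69. Between those gates 2.88% of all genes were lower and 3.16% higher in BCL11b+ID2+. Itga2 was at 312, 267 and 278 in BCL11b-ID2+ and at 235, 230 and 358 in BCL11b+ID2+, so these gates overlapped. S1pr5, the egress receptor of mature NK cells, had a value of 1.197 in 1 of 3 BCL11b-ID2+ libraries and 0 in the others, and the Ly49 receptor Klra7 had 0 in all 3. Klrg1, at 8.38, 1.54 and 24.2 in BCL11b-ID2+ and at 0 in BCL11b-ID2-, was called (adjusted p = 0.0318) but not in fits without any 1 of the 3 BCL11b-ID2- libraries (adjusted p = 0.0737 to 0.0773) or without BCL11b-ID2+ library 1 (0.0875) or 4 (0.179). Prdm1, at 26.3, 179 and 50.2 (adjusted p = 0.0342), lost its call without library 2 or 4 of either gate (0.0638 to 0.22). In the other gates Klrg1 reached 44.2 and Prdm1 233, above every BCL11b-ID2+ library.

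Factors of the type 2 and type 3 lineages were higher in the other ID2-positive gate. From BCL11b-ID2+ to BCL11b+ID2+ at E19.5, 7 of 8 were higher (median 3.14), Bcl11b itself being a gene of the sort, beside 3.16% of all genes. Il1rl1, the interleukin-33 receptor of type 2 cells, went from 132 ± 19.98 to 3624 ± 389 (4.77 ± 0.70, adjusted p = 7.88e-05), and Il17rb from 38.6 ± 37.1 to 569 ± 116. Between BCL11b-ID2+ and BCL11b-ID2- 4 of 8 were higher (median 1.55), namely Rora by 4.16, Ahr by 3.88, Gata3 by 1.70 and Maf by 1.399. There 8.82% of all genes were higher.

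**Figure D4:**
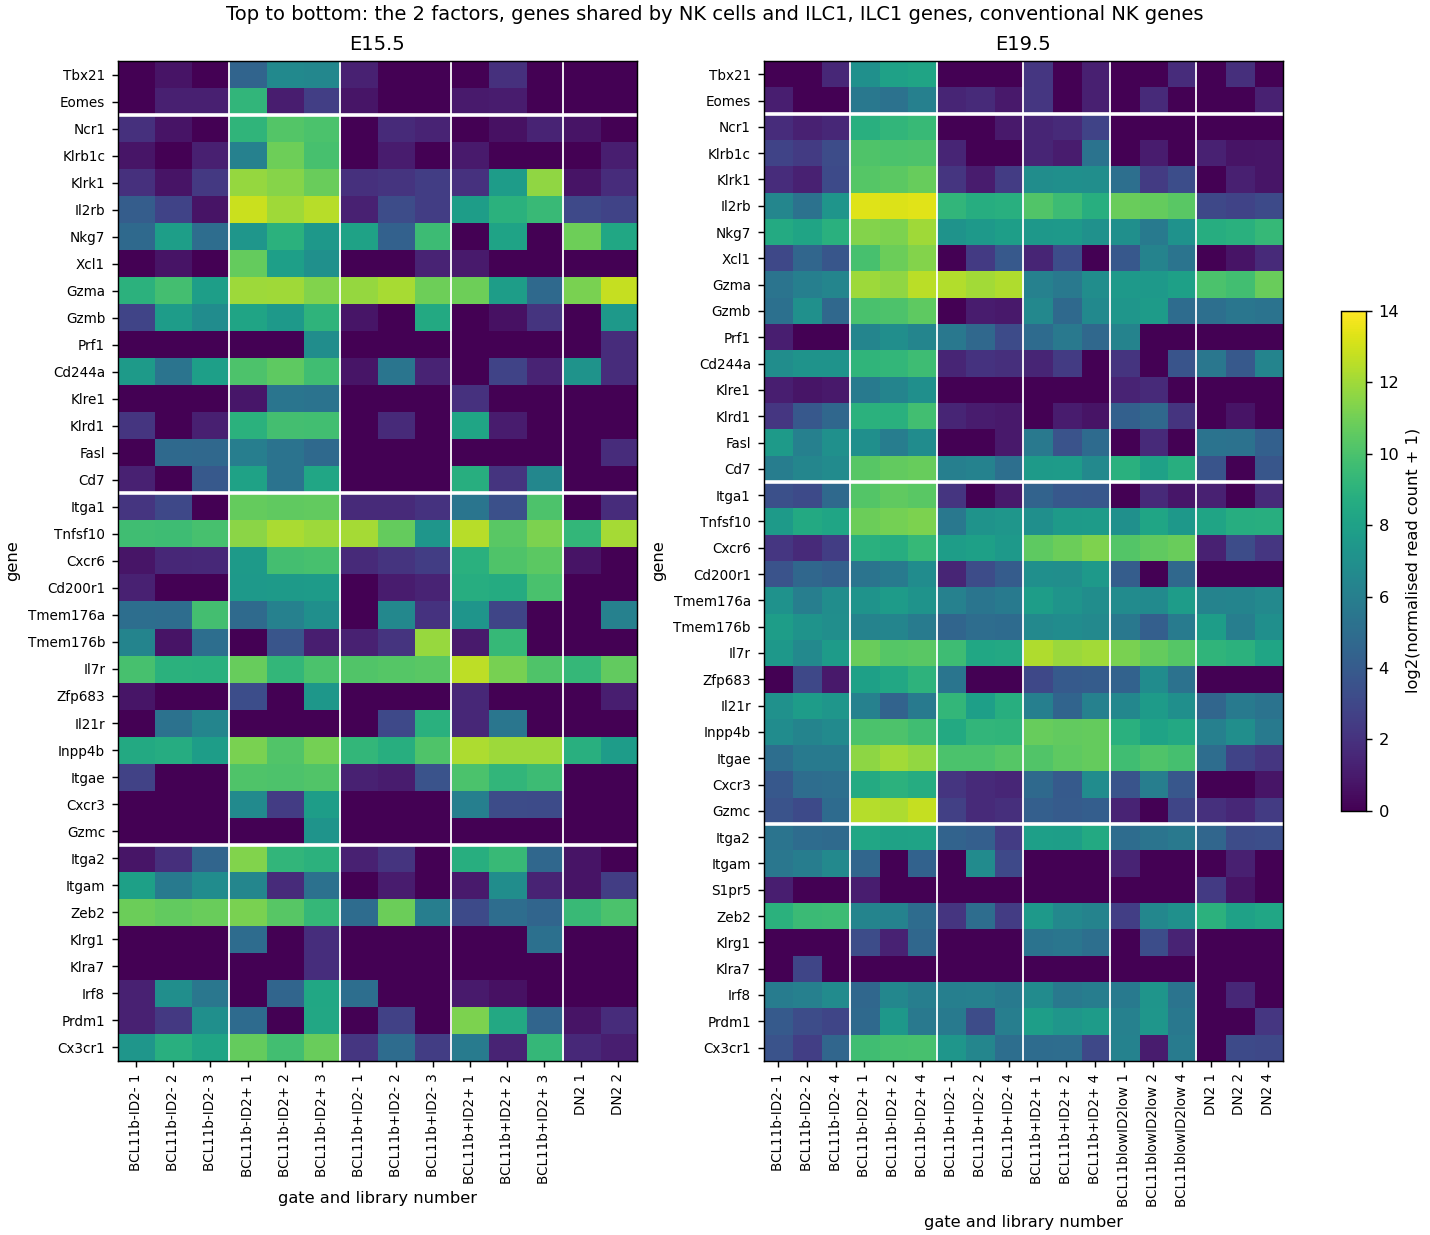
Log2 of the normalised read count plus 1 (colour) for each library (columns, by gate) at E15.5 and E19.5, with rows, from the top, for Tbx21 and Eomes, genes shared by NK cells and ILC1, ILC1 genes and conventional NK genes. The BCL11b-ID2+ columns of E19.5 are bright for most of the shared genes and for Itga1, Itgae and Gzmc among the ILC1 genes; the stages were normalised separately.

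At E15.5 the same lists gave few calls. Between the BCL11b-negative gates 0.321% of all genes were higher and 0.146% lower. In BCL11b-ID2+ against BCL11b-ID2- 5 of 12 tested genes common to NK cells and ILC1 were higher (median 6.89, beside -0.14 over all genes), namely Il2rb, Klrk1, Ncr1, Klrb1c and Xcl1, and 3 without library 1, where Klrk1 (adjusted p = 0.129) and Xcl1 (0.096) were not called. Il2rb was at 7469, 4163 and 5868 against 16.3, 5.94 and 0.674 (9.92 ± 1.70, adjusted p = 0.00613), and Ncr1 at 562, 1233 and 1053 against 2.84, 0.660 and 0 (adjusted p = 0.0171). In all other gates Ncr1, Klrb1c and Xcl1 were at most 2.84, 1.35 and 1.58. These genes passed the filter on low values through BCL11b-ID2+ alone and had to differ, so their calls are no separate support. Klrk1 reached 10 in 2 libraries of other gates, at 210 and 3314. It too needed BCL11b-ID2+ libraries to pass, and its call is no separate support either. Of 11 ILC1 genes 3 were higher (median 2.48), Itgae, Itga1 and Cxcr6, and 0 without library 1. Itga1 was at 1657, 1547 and 1561 against 3.55, 7.26 and 0. It reached 10 in 2 libraries of other gates, at 42.0 and 1093, and likewise needed BCL11b-ID2+ libraries to pass the filter. Of 7 conventional NK genes 0 were higher and 1 was lower (median -0.28). Ets1 and Ikzf3 were the 2 of 18 regulators that were higher (median 2.101), by 6.997 and 7.19, and of the 15 named E15.5 calls they alone kept their calls in every alternative and every fit that left out 1 library. Il2rb and Il18r1 were higher among 11 receptors (median 2.07), and without library 1 Il2rb was called (adjusted p = 0.0473) and Il18r1 was not (0.115). The call of Il2rb was lost without BCL11b-ID2- library 3 (adjusted p = 0.0676). Rora was higher among 8 type 2 and type 3 factors (median 2.05), a count of 0 without library 1, and 0 of 8 T-bet targets were called (median 4.06). Without library 1 the medians were 6.15 for genes common to NK cells and ILC1, 2.31 for ILC1 genes, 0.68 for conventional NK genes, 2.04 for regulators, 1.67 for receptors, 1.86 for type 2 and type 3 factors and 3.83 for targets, beside -0.03 over all genes.

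Between the ID2-positive gates at E15.5 Ncr1 was the single gene of all 8 lists past the threshold, with a difference of -9.14 ± 1.77 (adjusted p = 0.0354) and values of 0, 0.560 and 1.64 in BCL11b+ID2+. Ncr1 passed the filter on low values through BCL11b-ID2+ alone, which set this direction. Over all genes 0.0389% were lower and 0.0389% higher. Ncr1 was called in no fit that left out 1 library (adjusted p = 0.0635 to 0.142), and edgeR did not call it. The list medians were -5.88 for the genes common to NK cells and ILC1 and -5.82 for T-bet targets, beside -0.44 over all genes. They were 0.71 for ILC1 genes, -2.23 for conventional NK genes, -0.58 for regulators, -0.84 for receptors and 2.19 for type 2 and type 3 factors. Without library 1, in the same order, they were -6.09, -5.71, -0.56 over all genes, -0.03, -1.48, -0.66, -0.63 and 2.78.

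Genes whose pattern over libraries was most like that of each factor were ranked by Pearson r on log2 values, as a description of libraries that share gates. At E15.5 those most like Tbx21 (14 libraries, r from 0.93 to 0.97) were Klri1, H60b, Cd200r2, Cdk14, Klrb1c, Dll1, Ncr1 and Cd200r4. Klri1, an NK-cell lectin-like receptor, was at 54.9 on average in BCL11b-ID2+ and at 0 in all other gates. Those most like Eomes were Zfp954, Mr1, Spon1, Ifng, Tagap, Snx33, Klra5 and Pglyrp1, with lower r values of 0.81 to 0.87, and Eomes was above 10 in library 1 alone. Without that library r ranged from 0.52 to 0.82 for the Eomes set and from 0.94 to 0.97 for the Tbx21 set (13 libraries). At E19.5 (18 libraries) Dscam, Cdh13, Sec14l2, Maob, Pilrb1, Klrc3, Syt8 and Ccl1 were most like Tbx21 (r 0.96 for each). Klrc3, Maob, Kir3dl2, Samd3, Olfr523, Cdc42ep1, Pilrb1 and Dmrta1 were most like Eomes (r 0.92 to 0.93). Klrc3, a receptor chain of NK cells, Maob and Pilrb1 stood in both E19.5 sets, and the E15.5 sets had no gene in common.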

How the data were processed

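The submitters' processing notes name Trim Galore 0.50, STAR 2.6.0a, DESeq2 1.18.1 and the build GRCm38. The counter, annotation and strand are not given in the sources used here. Each stage has 1 deposited table, whose values are a signal: read counts that the authors scaled with DESeq, per the labels. Dividing each column by the value of 1 read gave whole reads for 100% of values, within 0.01 reads. The E15.5 groups rest on a match of each column's bare number to a barcode number in the labels. Symbols came from GENCODE M21, and there were 0 columns of other samples.

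Tests used log2(value + 1), which understates changes of low genes, on genes at 10 or more in at least 3 libraries (10289 and 13840 genes; 9115 and 12404 removed). All gates of a stage entered 1 limma 3.58.1 model (R 4.3.3), with Benjamini-Hochberg adjustment over all genes and a threshold of 0.05. Adjusted p-values are limma's unless edgeR 4.0.16, run on the recovered reads, is named. The E15.5 model gave 6 comparisons and the E19.5 model 9. The pipeline was tested on simulated data. Intervals are 95% exact binomial (scipy), and the floor is 3 reads.

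The members and all gene lists were chosen with earlier results of these data known. Named are Tbx21 and Eomes, up to 6 called members per list in the comparisons of the BCL11b-negative and of the ID2-positive gates by size of log2 difference, and the 8 genes most like each factor. Other named genes, such as those of E15.5 library 1, were chosen after their values were seen. Some genes of the lists are counted but not reported here by name.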

Additional observations from a re-analysis of the deposited data

Results flagged for a closer look

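At E19.5 limma called the interaction of ID2 and BCL11b for both T-box genes. For Tbx21 the ID2 effect with BCL11b less the one without BCL11b was -6.08 on the log2 scale (SE 1.32, adjusted p = 0.00444), and for Eomes it was -5.50 (SE 1.28, adjusted p = 0.00749). In edgeR the adjusted p was 0.977 and 0.0608. Both genes passed the filter on low values through the 3 BCL11b-ID2+ libraries alone, so a negative interaction was set by that filter, and these p-values are a description and no support. Tbx21 was higher with ID2 in 3 of 3 BCL11b-negative libraries, at 129 to 287 against 0 to 1.92. Among BCL11b-positive libraries it was 0 to 3.56 with ID2 and 0 without. Groups of 3 libraries are too small for a test of single outlying libraries, so the Eomes value of 584 in E15.5 library 1 is given as a value alone.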

How the results depend on the processing

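Over all alternatives and fits that left out 1 library, 369 values of the 2 genes were classed as the same, 13 reversed, 3 lost the threshold and 1 moved by more than the spread. For tested differences, the same meant an unchanged direction and side of the threshold. For Eomes at E15.5, not tested, and for the ratio within the gate, it meant a shift within the spread. For the ratio between gates it meant direction alone. The E15.5 Eomes difference from BCL11b-ID2- was thus classed as the same although it fell from 3.49 to 1.04 without library 1. The 3 losses were all in edgeR at E19.5: Eomes between the ID2-positive gates (log2 difference -5.01, adjusted p = 0.0528), and the interaction for Tbx21 (-4.50, adjusted p = 0.977) and Eomes (-6.91, adjusted p = 0.0608). The cause was not tested, beside the 0 reads of Tbx21 in BCL11b+ID2-. The reversals were all of differences that were not called, when 1 library was left out, and all but 1 were between gates near 0. At E15.5 the Tbx21 difference ranged from -0.43 to 0.64 for ID2 among BCL11b-positive gates and from -0.24 to 0.43 for BCL11b among ID2-negative gates. At E19.5 it ranged from -0.77 to 0 for BCL11b among ID2-negative gates, where the value of 0 was counted as reversed. It ranged from -0.52 to 0.59 for BCL11blowID2low against BCL11b-ID2-. For Eomes at E19.5 it ranged from -0.38 to 0.56 in the latter and from -0.74 to 0.35 for ID2 among BCL11b-positive gates. The E15.5 difference of Eomes minus Tbx21 per length between BCL11b-ID2+ and BCL11b+ID2+ ranged from -4.77 to 0.36. The E15.5 interaction of Eomes ranged from -4.65 to -0.61, the last without BCL11b-ID2+ library 1.

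Same-numbered libraries of different gates shared a small part of their deviations from the gate means at E19.5. Their correlations were 0.00 to 0.13 (median 0.05), against -0.11 to 0.04 (median -0.02) for different numbers. At E15.5 they were -0.05 to 0.04 (median 0.01), against -0.04 to 0.05 (median -0.01). At E19.5 17 of 18 libraries, and at E15.5 10 of 14, correlated best with their own number. The main model has no term for the number. With the number as a replicate block, the E19.5 Tbx21 difference between the BCL11b-negative gates was 7.22 (adjusted p = 1.25e-05), and the block changed no call of either gene. In that comparison the called genes went from 2194 to 2499 at E19.5 and from 48 to 36 at E15.5. Counts at E15.5 were unstable, the 48 becoming 28 with no filter and 32 in edgeR, and 4 to 15 when 1 library was left out. For the ID2-positive gates, the 8 E15.5 genes became 19 with a pseudocount of 8, 5 with no filter and 0 with only those gates fitted. The 59 genes called between DN2 and BCL11b-ID2+ at E15.5 became 35 with no filter, 26 with only those gates fitted and 12 to 22 when 1 library was left out, and the 74 called for ID2 among BCL11b-positive gates became 21, 2 and 15 to 79. At E19.5, 613 genes called between BCL11blowID2low and BCL11b+ID2+ became 341 with only those gates fitted, and 1186 between BCL11blowID2low and BCL11b-ID2+ became 768 to 1126 when 1 library was left out. Of 15 named list calls at E15.5, 2 held everywhere, and of 72 at E19.5, 64 did. In edgeR the E15.5 genes common to NK cells and ILC1 went from 5 to 2 and ILC1 genes from 3 to 1. The folds, list counts, list medians and correlations without library 1 were added after the data had been seen. The low depth of the gates near 0, with 1 to 5 reads, limits every fold given against them.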
